A study of Mus musculus with 8 samples.

Results

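Gata1, Gata2, Klf1, Zfpm1, Tal1 and Gfi1b, the GATA factors of early blood cells and 4 of their erythroid partner regulators, were followed across bone marrow progenitors and housing groups. They were chosen by name as 6 of the 27998 genes in the deposited table. The cells were KL cells, c-Kit (CD117) positive marrow cells depleted of cells carrying lineage markers, TER119 among them, from female B6 mice aged 3 to 4 months. CVT mice had spent 1 month in a conventional facility, co-housed with mice raised there, and SPF mice remained under specific pathogen-free conditions. Each group had 4 pools of 2 or 3 mice (10 mice per group), and the pool is the replicate, so p-values measure the spread between pools of animals. SPF mice gave pools 1, 2, 7 and 8 and CVT mice pools 3, 4, 5 and 6. TER119 marks later erythroid cells, so the data hold the early part of erythroid maturation.

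Transcripts were counted as UMIs (unique molecular identifiers, 1 per captured molecule) in 29891 cells, with 2759 to 49732 UMIs per cell and 19041749 to 59812346 per pool. Pools 1 to 4 held mice 1 to 10 and pools 5 to 8 mice 11 to 20, with 2 pools of each housing group in either set. The labels say no more about the sets, which differed in haemoglobin transcripts, at 0.0134% to 0.0174% of UMIs in the first set and 0.155% to 0.450% in the second. Of 29365 distinct cell barcodes, 522 occurred in more than 1 pool.

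GATA factors are zinc finger proteins that bind GATA motifs. GATA2 is known for maintaining stem and early progenitor cells and mast cells, and GATA1 for driving erythroid, megakaryocyte, mast cell and eosinophil maturation. As erythroid cells mature, GATA1 replaces GATA2 at shared sites, among them sites of the Gata2 gene, an exchange called the GATA switch. FOG1, encoded by Zfpm1, is a cofactor that binds GATA1. TAL1 is a basic helix-loop-helix factor that joins GATA factors in a complex with LMO2 and LDB1. KLF1 binds CACCC boxes of globin and other erythroid genes, and GFI1B is a repressor needed in erythroid and megakaryocyte cells.

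In the GENCODE M21 annotation of GRCm38, Gata1 lies on chromosome X (7959260 to 7978071, minus strand), Gata2 on chromosome 6 (88193891 to 88207032, plus strand) and Klf1 on chromosome 8 (84901928 to 84905291, plus strand). Zfpm1 lies on chromosome 8 (122282141 to 122337251, plus strand), Tal1 on chromosome 4 (115056426 to 115071755, plus strand) and Gfi1b on chromosome 2 (28609450 to 28621982, minus strand). Zfpm1 overlaps the gene model Gm20388 on the same strand. Whether the annotation used for counting held that model is not known, so the counts of Zfpm1 are uncertain. The submitters' notes name mm9 for the counts, so these positions locate the genes and played no part in the counting.

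Upstream sequence is shown for the GATA factors, whose levels exchange along the erythroid path, and for Klf1 and Gfi1b, the partners that were highest in erythroid-like cells. The bases come from RefSeq on GRCm38.p6 and end before the first base of any annotated exon. Capitals mark a GATA hexamer (AGATAA, the form TGATAA, the form AGATAG or the form TGATAG) or a CACCC box (CACACCC or else CCCACCC), searched on both strands. The windows are chrX:7967911-7968160 (minus strand, within the longer gene model of Gata1), chr6:88193641-88193890 (plus strand, at the first of 2 RefSeq starts of Gata2), chr8:84901732-84901927 (plus strand, Klf1) and chr2:28621983-28622232 (minus strand, Gfi1b).
Gata1: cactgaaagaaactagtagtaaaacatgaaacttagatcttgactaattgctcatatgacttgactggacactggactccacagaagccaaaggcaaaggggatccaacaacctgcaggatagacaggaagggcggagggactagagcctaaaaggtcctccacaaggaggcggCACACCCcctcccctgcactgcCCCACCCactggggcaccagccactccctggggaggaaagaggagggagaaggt
Gata2: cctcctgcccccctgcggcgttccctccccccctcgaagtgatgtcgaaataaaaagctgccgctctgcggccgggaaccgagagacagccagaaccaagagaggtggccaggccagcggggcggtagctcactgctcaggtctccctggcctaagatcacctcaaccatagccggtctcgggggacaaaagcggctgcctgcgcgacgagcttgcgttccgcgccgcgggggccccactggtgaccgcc
Klf1: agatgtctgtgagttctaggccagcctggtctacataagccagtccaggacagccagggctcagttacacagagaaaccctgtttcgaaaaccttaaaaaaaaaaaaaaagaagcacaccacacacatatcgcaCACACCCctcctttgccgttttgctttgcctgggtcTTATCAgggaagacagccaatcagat
Gfi1b: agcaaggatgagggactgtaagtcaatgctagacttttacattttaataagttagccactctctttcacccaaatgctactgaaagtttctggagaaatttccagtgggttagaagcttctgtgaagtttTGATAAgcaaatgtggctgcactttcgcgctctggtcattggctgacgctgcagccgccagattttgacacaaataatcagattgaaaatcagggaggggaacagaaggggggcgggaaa

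The Gata1 window held 2 CACCC boxes, beginning 76 and 54 bases before the start, and no GATA hexamer. The Klf1 window held a CACCC box beginning 116 bases before its RefSeq start and a GATA hexamer on the opposite strand 80 bases before it. The Gfi1b window held a GATA hexamer 120 bases before its start, and the Gata2 window held neither motif. Of 32851 RefSeq starts, 26.5% had such a GATA hexamer and 21.3% such a CACCC box in the 250 bases before them, so a match is common and is given as a description.

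Cells were clustered without the 6 genes, and clusters were named from markers as like long-term stem cells (LTHSC, 1059 cells), lymphoid-primed progenitors (LMPP, 3266), pre-megakaryocyte-erythroid progenitors (pre-MegE, 3795), erythroid (4375), megakaryocyte (2776), basophil/mast (912), granulocyte-monocyte progenitors (GMP, 4527), monocyte (2242) or neutrophil cells (1656). No cluster could be named as multipotent progenitors, and 4987 cells in 6 of the 36 clusters stayed unnamed. Levels are in CPM, the UMIs of a gene per 1000000 UMIs of the class, as mean ± SD of 8 pools. They count 3′ ends and do not scale with gene length. Neighbouring classes in each gene's order were compared within pools by an exact sign-flip permutation test (two-sided, smallest possible p 0.00781), adjusted over 48 pairs, of which 26 passed. Classes and levels come from the same cells, so the orders describe where each gene was high.

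Gata2 was highest in basophil/mast-like cells (430.4 ± 35.3 CPM), followed by pre-MegE-like (343 ± 26.9), megakaryocyte-like (228 ± 18.1), LTHSC-like (118 ± 8.26) and erythroid-like cells (52.2 ± 9.78). The pools of neighbouring classes in this order did not overlap, and each step had the same sign in 8 of 8 pools (adjusted p = 0.0187 for each, exact permutation). The lowest level was that of monocyte-like cells (7.80 ± 2.55), and only neutrophil-like (22.1) and GMP-like cells (14.4) were neighbours that did not pass. The neutrophil-like level rested on 1 of 3 clusters, that led by Retnlg, Mmp8 and Gm5483 (264 cells, 3 in the smallest pool), with Gata2 at 88.5 CPM (234 UMIs) against 4.99 and 11.8 in the others (21 and 86 UMIs).

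Gata1 was highest in erythroid-like (109 ± 7.92 CPM) and pre-MegE-like cells (101 ± 5.65), with erythroid-like cells higher in 7 of 8 pools (adjusted p = 0.0300, exact permutation). Basophil/mast-like (75.2 ± 11.7) and megakaryocyte-like cells (75.1 ± 6.70) followed and did not differ beyond their spread (higher in 4 of 8 pools). LTHSC-like cells had 10.4 ± 4.82 and GMP-like cells 3.25 ± 1.42. The level of Gata2 thus exceeded that of Gata1 in stem, pre-MegE-, megakaryocyte- and basophil/mast-like cells, and the level of Gata1 was the higher one in erythroid-like cells.

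Klf1 had well separated levels, with 298 ± 17.8 CPM in erythroid-like, 197 ± 13.2 in pre-MegE-like, 93.6 ± 14.3 in basophil/mast-like and 46.4 ± 8.74 in megakaryocyte-like cells. None of these neighbours overlapped over 8 pools (adjusted p = 0.0187 for each step, exact permutation). Below them, neutrophil-like (10.9) and LTHSC-like cells (10.4) did not differ beyond their spread. The same small neutrophil-like cluster had Klf1 at 30.3 CPM, against 4.51 and 6.44 in the others.

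Gfi1b was highest in the same 2 classes at lower levels, with 77.4 ± 6.80 in erythroid-like, 61.3 ± 4.30 in pre-MegE-like and 45.4 ± 7.42 CPM in megakaryocyte-like cells, each step in 8 of 8 pools (adjusted p = 0.0187, exact permutation). Zfpm1 was highest in megakaryocyte-like cells (81.0 ± 6.50), above pre-MegE-like cells (63.4 ± 6.33) in 8 of 8 pools (adjusted p = 0.0187, exact permutation), and pre-MegE- and erythroid-like cells (60.7 ± 6.06) did not differ beyond their spread. Tal1 went down in small steps over its first 5 classes, and no neighbours among them passed the test. It was at 70.2 ± 7.49 in megakaryocyte-like, 62.9 in pre-MegE-like, 62.7 in erythroid-like, 56.3 in basophil/mast-like and 49.7 ± 8.92 CPM in LTHSC-like cells. Classes further apart, such as the first and last of these, were not compared by a test. LMPP-like cells (23.0) were below LTHSC-like cells in 8 of 8 pools (adjusted p = 0.0187, exact permutation).

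**Figure D1:**
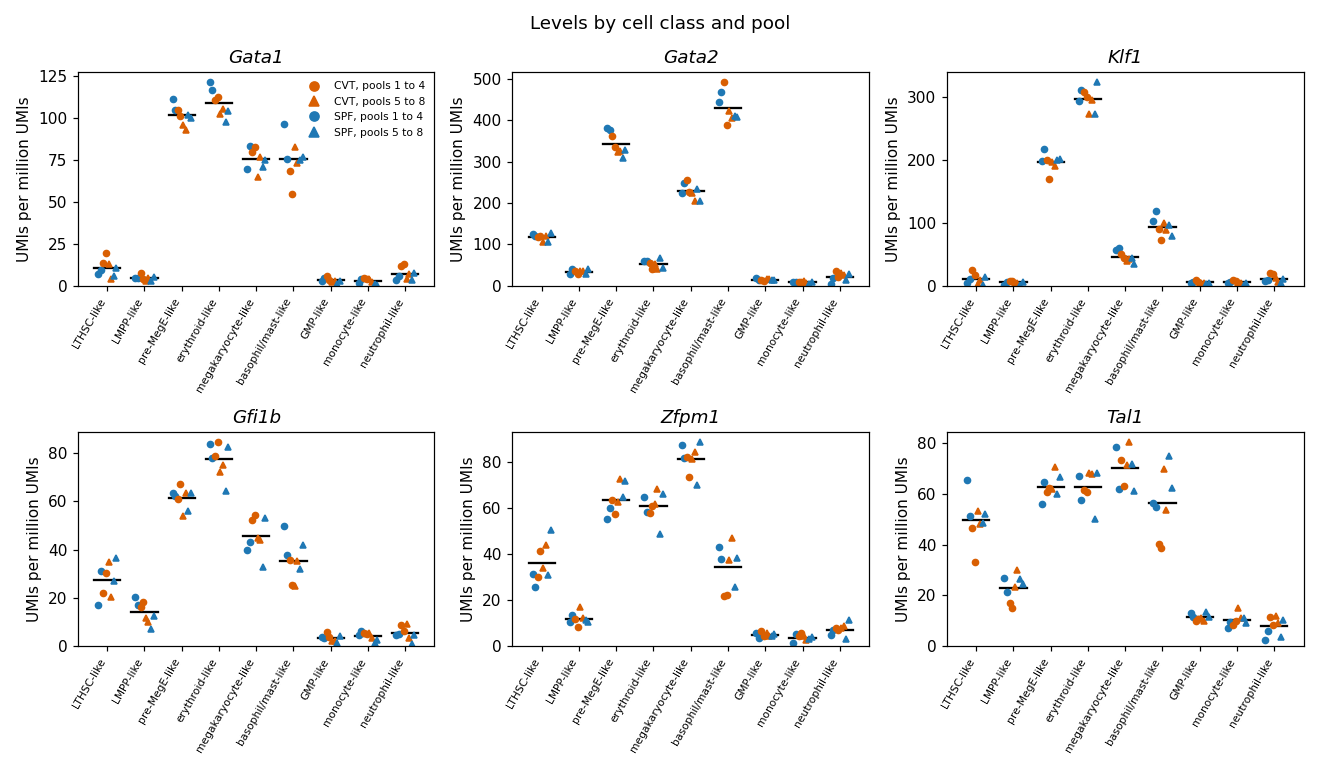
Levels of the 6 genes (CPM) in cell classes, where each point is a pool and lines are means of 8 pools. Gata2 was highest in basophil/mast-like cells (430.4), Klf1, Gata1 and Gfi1b in erythroid-like cells (298, 109 and 77.4) and Zfpm1 and Tal1 in megakaryocyte-like cells (81.0 and 70.2).

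Clusters of the erythroid-like class differed in Gata2 far more than in Gata1. Over all pools, Gata2 was at 139 CPM in the cluster led by Trib2, Zg16 and Gm15915 (1290 cells), 39.2 in that led by Mt2, Sphk1 and Car1 (921 cells) and 10.7 in that led by Cldn13, Ctse and Rhd (581 cells). Gata1 was at 103, 103 and 122 in the same clusters, and Klf1 at 227, 280.1 and 380.2. The cluster led by haemoglobin genes (135 cells, 4 in the smallest pool) had Gata1 at 119 and Gata2 at 19.5.

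To place the exchange, the 9229 LTHSC-, pre-MegE- and erythroid-like cells were ordered by a score of 16 erythroid minus 12 stem cell genes, none of them among the 6, and divided into 10 equal bins. The 16 erythroid genes were also the markers that named erythroid-like cells, so the order is not independent of the classes. Levels along it are given as a description. Bin 1 was 96.5% LTHSC-like cells, bin 2 was 81.6% pre-MegE-like cells and bin 10 held erythroid-like cells alone. Multipotent progenitors were planned for the ordering, but no cluster could be named as such and unnamed cells were left out. Changes between bins 1 and 2 thus fall between classes. Unnamed clusters led by Hlf, Gm19590 and Vldlr and by Adgrl4, Otos and Cpa3 matched these progenitors best. They had Gata2 at 72.4 and 66.6 CPM. The median UMI total per cell was 5360 in bin 1 and 27372 in bin 10, so depth moved with the order.

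Gata2 was at 126 ± 8.34 CPM in bin 1, 360.5 ± 48.5 in bin 3, 184 ± 16.5 in bin 6 and 13.3 ± 6.48 in bin 10. Gata1 was at 12.2 ± 6.95, 101 ± 11.1, 101 ± 9.86 and 125 ± 13.5 in the same bins. Gata1 was thus near its later level by bin 3, where Gata2 peaked, and most of the later shift in their ratio was in Gata2.

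Gata1 first passed Gata2 at 6.61 ± 0.253 (8 pools) on a scale from 0 to 10 bins, in bin 7. The position was 6.34, 6.71, 6.97 and 6.42 in SPF pools 1, 2, 7 and 8 and 6.96, 6.51, 6.35 and 6.58 in CVT pools 3, 4, 5 and 6, so the groups overlapped. Their means were 6.61 (SPF) and 6.60 (CVT), with p = 0.971 by an exact permutation test (two-sided, n = 4 per group, smallest possible p 0.0286). The difference (CVT minus SPF) was 0.215 within pools 1 to 4 and -0.229 within pools 5 to 8. With cells thinned to 2759 UMIs the position lay between 6.70 and 8.25, and with a coarser clustering between 7.42 and 7.74, so its place on the scale depends on these choices.

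Klf1 was at 11.3 ± 5.75 CPM in bin 1, 215 ± 23.7 in bin 5 and 376 ± 27.6 in bin 10, and Gfi1b at 24.6 ± 8.08, 70.8 ± 7.04 and 88.3 ± 8.58. A level of 0.5 of the highest bin was first passed at 1.32 ± 0.214 by Gata1, 1.86 ± 0.577 by Gfi1b and 3.14 ± 0.721 by Klf1 (8 pools). Such a position was found in only 6 pools for Zfpm1 and 2 for Tal1. Each position depends on the gene's own highest bin, so they are not read as an order of activation. In bin 2 Klf1 was already at 115 ± 27.4 and Gata1 at 76.4 ± 13.9. Zfpm1 lay between 51.3 and 74.7 and Tal1 between 54.0 and 75.3 from bin 2 on. Spi1 (PU.1), a factor known to oppose GATA1, was at 132 ± 26.9 in bin 1 and 4.81 ± 2.42 in bin 10. Fli1, a megakaryocyte factor, was at 82.6 ± 6.55 and 1.99 ± 1.12 in these bins.

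**Figure D2:**
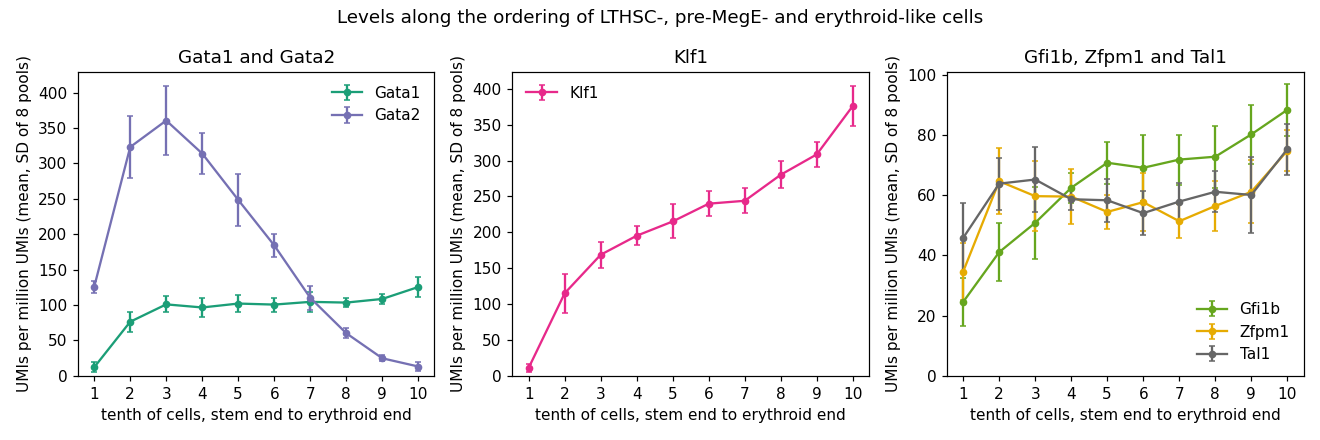
Levels (CPM, mean and SD of 8 pools) in bins of cells ordered from the stem end to the erythroid end. Gata2 peaked at 360.5 in bin 3 and met Gata1 in bin 7, while Klf1 went from 11.3 to 376.

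Single cells were thinned to 2759 UMIs each, which left out no cell, to compare shares of cells with a UMI of either factor (mean ± SD of 8 pools). In pre-MegE-like cells 44.0% ± 1.53 had Gata2 alone, 9.61% ± 1.17 Gata1 alone and 14.97% ± 3.35 both, where the product of the single shares was 14.6%. In erythroid-like cells 12.3% ± 2.14 had Gata2 alone, 22.2% ± 2.73 Gata1 alone and 3.93% ± 0.749 both, with a product of 4.24%. In both classes the share with both factors lay within 1 SD of that product, where the SD is the spread of the share between pools. The difference from the product was not tested within pools. Each class also joins clusters with different levels, so no independence of the 2 factors is concluded.

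A Gata1 UMI was found in 2.08% ± 1.65 of thinned LTHSC-like cells, 0.884% ± 0.625 of GMP-like and 0.659% ± 0.678 of monocyte-like cells, the last of which should lack the gene. The thinned LTHSC-like share overlapped these within its SD, so it does not decide whether the gene is expressed there. In CPM without thinning, the LTHSC-like level (10.4 ± 4.82, 62 UMIs) was above those of GMP-like (3.25 ± 1.42) and monocyte-like cells (2.84 ± 1.53). These pairs were not neighbours in the order and were not tested. Without thinning, the shares with a Gata1 UMI were 42.5% in pre-MegE-like, 77.5% in erythroid-like, 5.43% in LTHSC-like and 3.97% in monocyte-like cells, at median depths of 5296, 17898, 5465 and 15226 UMIs.

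**Figure D3:**
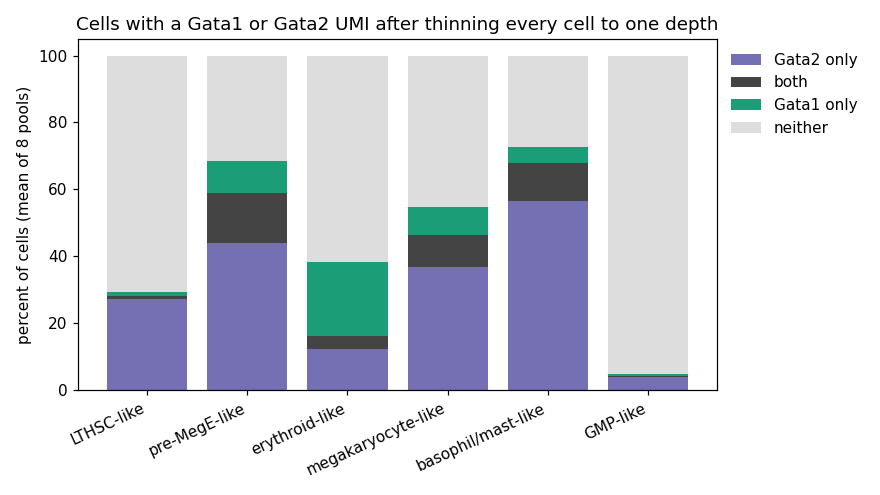
Share of cells (percent, mean of 8 pools) with a UMI of Gata2 alone, both, Gata1 alone or neither, after thinning each cell to 2759 UMIs. Gata2 alone was found in 44.0% of pre-MegE-like and 12.3% of erythroid-like cells, Gata1 alone in 9.61% and 22.2%.

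Partner genes were compared between thinned cells with Gata1 alone and with Gata2 alone. In erythroid-like cells Klf1 was at 293 ± 35.1 CPM with Gata1 alone (978 cells) and 218 ± 33.7 with Gata2 alone (516 cells), higher in 7 of 8 pools, which did not pass the correction over 8 comparisons (exact sign-flip permutation, p = 0.0156, adjusted p = 0.125). None of the other 7 comparisons passed either.

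For each of the 6, the genes with the most similar levels over the 36 clusters are given as a description (Pearson's r of log2 values among 8196 genes, over clusters that share 8 libraries and differ in depth). They were Samd14 (0.971), Tango2 (0.961) and the erythropoietin receptor Epor (0.953) for Gata1, and Slc22a3 (0.932), the thrombin receptor F2r (0.926) and Tnik (0.912) for Gata2. For Klf1 they were Tspo2 (0.984), Ces2g (0.982) and the water channel Aqp1 (0.973), and for Gfi1b Sept8 (0.954), Abcb4 (0.927) and Abhd16a (0.918). For Zfpm1 they were Art4 (0.921), Ubxn2a (0.910) and Gapvd1 (0.908), and for Tal1 Fam109b (0.948), transferrin receptor 2, Tfr2 (0.944), and Sdsl (0.927). Gata1 had r = 0.921 with Klf1 and 0.643 with Gata2, and Gata2 had r = 0.487 with Klf1.

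Of 7 partners in the same complexes, Tcf3, which encodes a basic helix-loop-helix partner of TAL1, was highest in erythroid-like (107 ± 6.01 CPM) and then pre-MegE-like cells (89.8 ± 6.52), the leading classes of Gata1, Klf1 and Gfi1b. The other 6 were highest elsewhere. Lmo2, the bridge between TAL1 and GATA factors, was at 816 ± 71.5 CPM in LTHSC-like and 311 ± 13.7 in erythroid-like cells. Lyl1, a relative of Tal1, was at 222 ± 22.9 and 65.8 ± 8.16 in these classes. Ldb1, the scaffold of the complex, and Cbfa2t3, a corepressor, were highest in pre-MegE-like cells (104 ± 15.1 and 211 ± 13.3), and Lmo4 and Runx1 in basophil/mast-like cells (1126 ± 147 and 166 ± 26.0). Gata3, the T cell relative, was at 29.1 ± 9.72 in LTHSC-like and 0.683 ± 0.276 in erythroid-like cells.

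Housing groups were compared with edgeR's quasi-likelihood test on UMIs summed per pool, adjusted by the Benjamini-Hochberg method over all genes tested, in all KL cells and 6 classes. These fits scale pools by TMM and CPM scales them by total UMIs. A log2 fold change can therefore differ in size or sign from the CPM values printed beside it. None of the 6 genes passed in any population (40 tests, with 0 at an unadjusted p under 0.05 and 0 called by DESeq2). Of all genes, 0 of 13092 passed in KL (0.0%), 2 of 9328 in pre-MegE-like (0.0214%) and 1 of 6844 in basophil/mast-like cells (0.0146%), and 0 in LTHSC-like (0.0%), erythroid-like (0.0%), megakaryocyte-like (0.0%) and GMP-like cells (0.0%). At an unadjusted p under 0.05, 392 genes were higher and 529 lower in CVT KL cells, and DESeq2 called 15 genes there. Gata1 and Klf1 were below the filter on low counts in LTHSC-like cells and were not tested in them.

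Gata2 had the smallest p of the 6 in KL cells. It was at 91.1, 90.0, 80.8 and 77.0 CPM in SPF pools 1, 2, 7 and 8 and 78.7, 63.5, 83.8 and 65.3 in CVT pools 3, 4, 5 and 6. The groups overlapped, since CVT pools 3 and 5 lay above the lowest SPF pool. The log2 fold change of CVT over SPF was -0.17 ± 0.091 (SE), with an adjusted p of 0.730 by edgeR. It was -0.27 ± 0.088 within pools 1 to 4 (adjusted p = 0.149) and -0.043 ± 0.12 within pools 5 to 8 (adjusted p = 0.970), and the interaction of housing with pool set did not pass (adjusted p = 0.680). In sums over KL cells, fewer cells of a type and less RNA per cell cannot be told apart.

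Within erythroid-like cells Gata2 was at 59.7, 60.4, 66.04 and 43.7 CPM in SPF pools 1, 2, 7 and 8 and 54.4, 40.2, 52.9 and 40.6 in CVT pools 3, 4, 5 and 6, with overlap. The log2 fold change was -0.25 ± 0.13 (edgeR, adjusted p = 1.0). Within pre-MegE-like cells Gata2 was at 382, 376, 308 and 329 in the SPF pools and 361, 335, 323 and 327 in the CVT pools, also with overlap, and the log2 fold change was 0.00062 ± 0.070. The difference between these classes was not tested.

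Gata1 in pre-MegE-like cells was at 111, 104, 102 and 99.8 CPM in the SPF pools and 105, 101, 95.8 and 92.8 in the CVT pools, with a log2 fold change of -0.026 ± 0.077 (-0.048 without SPF pool 8, -0.0091 without CVT pool 6 and -0.11 with 2000 variable genes). In erythroid-like cells it was at 121, 117, 97.4 and 104 (SPF) and 110.3, 112, 102 and 105 (CVT), with -0.021 ± 0.065, so the groups overlapped in both classes. Klf1, Gfi1b, Zfpm1 and Tal1 had log2 fold changes of -0.019 ± 0.064, 0.015 ± 0.077, 0.062 ± 0.092 and 0.084 ± 0.093 in erythroid-like cells. In KL cells the log2 fold changes were 0.14 ± 0.17 (Klf1), 0.11 ± 0.18 (Gfi1b), 0.074 ± 0.16 (Gata1), 0.074 ± 0.098 (Zfpm1) and 0.043 ± 0.074 (Tal1), and without SPF pool 7 those of Gata1, Gfi1b, Zfpm1 and Tal1 had the opposite sign and that of Klf1 was 0.016 (0.24 without SPF pool 1).

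In 1 of 60 pairings of the 6 genes with KL cells and 9 classes the housing groups did not overlap, which was Tal1 in GMP-like cells (13.1, 11.5, 13.4 and 11.4 CPM in the SPF pools and 9.81, 10.5, 11.2 and 9.73 in the CVT pools). Of all genes tested, 5.66% did not overlap in GMP-like cells, 6.16% in KL, 3.28% in LTHSC-like, 3.51% in pre-MegE-like, 2.92% in erythroid-like, 3.32% in megakaryocyte-like and 4.03% in basophil/mast-like cells, so a single such pairing is not read as a result about the 6 genes. By edgeR its log2 fold change was -0.19 ± 0.11, which did not pass (adjusted p = 0.817), and 0.0% of genes were called there.

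**Figure D4:**
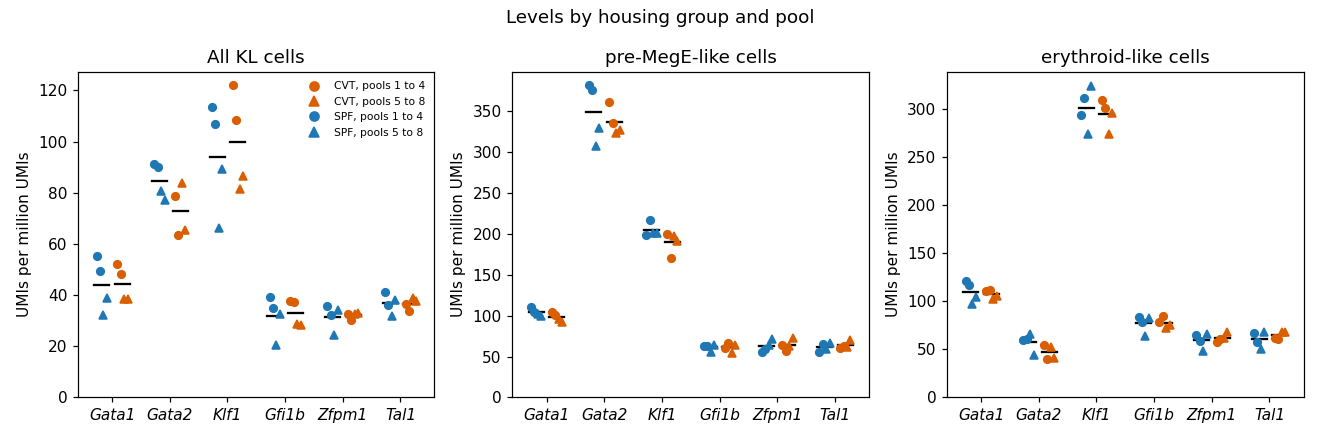
Levels of the 6 genes (CPM) by pool in all KL, pre-MegE-like and erythroid-like cells, with group means of 4 pools as lines. SPF and CVT pools overlap for each gene shown, and in all KL cells pools 5 to 8 lie below pools 1 to 4 for Gata1, Klf1 and Gfi1b.

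The share of Gata1 among the UMIs of Gata1 and Gata2 needs no scaling of libraries. It was 22.9% ± 0.930 in pre-MegE-like, 67.7% ± 4.39 in erythroid-like, 24.8% ± 1.86 in megakaryocyte-like and 14.9% ± 1.95 in basophil/mast-like cells (8 pools). In erythroid-like cells it was 67.0%, 65.9%, 59.6% and 70.4% in SPF pools 1, 2, 7 and 8 and 67.0%, 73.6%, 65.9% and 72.1% in CVT pools 3, 4, 5 and 6. The groups overlapped, and the difference of 3.92 percentage points did not pass (exact permutation test, two-sided, p = 0.229, adjusted p = 0.5 over 7 populations, n = 4 per group). It was 1.88 points without SPF pool 7 and 2.60 without CVT pool 4. SPF pool 7, the lowest, rested on 270 Gata1 and 183 Gata2 UMIs (95% exact binomial interval 54.9% to 64.2%, counting error only). None of the 7 populations passed.

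Between the pool sets, 3 of the 6 genes differed in KL cells. Gata1 lay between 48.4 and 55.2 CPM in the first set (pools 1 to 4) and between 32.0 and 39.0 in the second, without overlap, a log2 difference (pools 5 to 8 over pools 1 to 4, with housing in the model) of -0.45 ± 0.064 (edgeR, adjusted p = 0.00857). Klf1 (-0.47 ± 0.076, adjusted p = 0.0107) and Gfi1b (-0.43 ± 0.11, adjusted p = 0.0254) were lower too, and Gata2, Zfpm1 and Tal1 did not pass. Of all genes 9.72% were lower by this test, and 11.3% were lower in all of pools 5 to 8 than in any of pools 1 to 4. Pre-MegE- and erythroid-like cells made up between 29.7% and 33.8% of KL cells in the first set and between 21.2% and 25.3% in the second, and their part in the result was not tested beyond the fits within classes.

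Within erythroid-like cells the difference between the sets was -0.10 ± 0.059 for Gata1, 0.0064 ± 0.060 for Klf1 and -0.063 ± 0.074 for Gfi1b, none of which passed (0.077% of genes were called lower). None of the 6 passed in pre-MegE-like cells (0.257% called lower). In CPM the sets did not overlap for Gata1 in erythroid-like cells (means of 115 in pools 1 to 4 and 102 in pools 5 to 8). Nor did they for Gata2 in pre-MegE-like cells (means of 364 and 322). The share of all genes without such overlap was not counted within these classes. In GMP-like cells Gata1 had a difference of -0.87 ± 0.23 (edgeR, adjusted p = 0.0321, 3.21% called lower). Its level there was low (3.25 CPM, 4 to 87 UMIs per pool), near the 2.84 CPM of monocyte-like cells (adjusted p = 0.429, exact permutation). A test that did not pass cannot show that these levels are equal. Whether the call is a change in expression was thus not decided.

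Around the 6 genes, 58 of 60 further genes in 7 lists were tested between housing groups in KL cells by edgeR, and none passed. Of 20 erythroid targets, 14 had a log2 fold change above 0 (median 0.11, against -0.012 over all 13092 genes), led by smallest p by the membrane protein ankyrin, Ank1 (0.51 ± 0.17, adjusted p = 0.676) and the transferrin receptor, Tfrc (0.29 ± 0.12). Of 7 complex partners 1 was above 0 (median -0.058), and Lmo2 (-0.11 ± 0.051), Cbfa2t3 (-0.10 ± 0.079) and Tcf3 (0.056 ± 0.066) came first. Of 7 corepressors 3 were above 0 (median -0.024), with Chd4 (-0.057 ± 0.057), Mta2 (0.064 ± 0.064) and Rcor1 (0.073 ± 0.078) first.

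Of 7 opposing factors 4 were above 0 (median 0.010), with Cebpa (0.20 ± 0.12), Irf8 (0.13 ± 0.15) and Ikzf1 (-0.029 ± 0.059) first in KL cells, and of 8 megakaryocyte genes 4 (median -0.033), including Vwf (0.40 ± 0.22) and Gp1bb (0.42 ± 0.27). The 4 haemoglobin genes were below 0 (median -0.40) with wide errors, as for Hba-a2 (-0.63 ± 1.38), Hbb-bt (-0.37 ± 1.09) and Hba-a1 (-0.37 ± 1.12). Of 8 relatives tested 4 were above 0 (median 0.011), with Gata3 (-0.39 ± 0.13, adjusted p = 0.676 by edgeR), Klf10 (-0.30 ± 0.10) and Klf6 (0.42 ± 0.31) first. In LTHSC-like cells Gata3 had the other sign (0.68 ± 0.24, adjusted p = 0.851 by edgeR). These cells were 2.62% ± 1.43 of KL cells in CVT and 4.59% ± 1.32 in SPF pools. The groups overlapped, with CVT pools 3, 4, 5 and 6 at 1.34%, 1.41%, 3.85% and 3.86% and SPF pool 1 at 3.65%. The class held 1059 cells here and 3148 with a coarser clustering. Neither the difference in shares nor its part in the Gata3 values was tested.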

How the data were processed

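KL cells of 8 pools (4 SPF, 4 CVT) were profiled with the 10x Genomics Chromium 3′ kit. The deposited table holds raw UMI counts per gene and cell, made by the authors with Cell Ranger on mm9 per the labels (versions not given in the sources used here). Cells were assigned to pools by the number ending each cell name, matched to the number in the sample description, and 0 columns had no sample. After scaling each cell to 10000 UMIs, 1000 variable genes without the 6 genes, 30 principal components and 30 neighbours gave Leiden clusters (resolution 2; scanpy 1.11.5, leidenalg 0.10.2, Python 3.11.15). A cluster was named from at least 3 markers, and a class was used with at least 20 cells in every pool. A doublet caller marked 92 cells (0.308%), too few to be used, so doublets were kept.

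For tests, counts were added up by pool and fitted in edgeR 4.0.16 (R 4.3.3; TMM, filterByExpr, quasi-likelihood test), with a Benjamini-Hochberg adjusted p under 0.05 as a call, and with DESeq2 1.42.0 as an alternative. The fitting step was tested on simulated data. Single values were tested by exact permutation over the 70 regroupings of 8 pools. Confidence intervals cover counting error only. Likeness used log2(CPM + 1) of genes with at least 20 CPM in a cluster. The members and lists were chosen with earlier results of these data known. The genes named were the 6, the 3 with the smallest p in KL cells of each list and the 3 most alike to each of the 6, and the partners and relatives whose levels are described were picked after their values were seen. Some genes that the rule names are not reported here. Alternatives were other normalization, filters, clusterings, orderings, a block of pool sets and leaving out each pool, and leaving out haemoglobin genes or the haemoglobin-led cluster was chosen after seeing the data. Total UMIs per pool were 19041749 to 59812346.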

Additional observations from a re-analysis of the deposited data

Results flagged for a closer look

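Of 136 groups of 4 pools examined, 7 had a pool far from the other 3 (gap over range above Dixon's 95% critical value), about the 1 in 20 that chance gives. Gata1 in basophil/mast-like cells was at 96.1 CPM (UMIs of the gene per 1000000 UMIs of the class) in SPF pool 1, with the nearest SPF pool at 76.8. Klf1 in pre-MegE-like cells was at 217 in SPF pool 2 (nearest 201). SPF pool 7 was the lowest for Gata2 in monocyte-like cells (3.03, nearest 7.81), Gfi1b in neutrophil-like cells (1.02, nearest 4.71) and Gfi1b in pre-MegE-like cells (56.1, nearest 62.3). CVT pool 4 was the lowest for Gata2 in LMPP-like cells (27.6, nearest 35.8) and for Zfpm1 in all KL cells (30.3, nearest 32.5).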

How the results depend on the processing

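None of the 6 genes was called between housing groups in 646 tests under the alternatives (smallest adjusted p 0.399, 15 at an unadjusted p under 0.05). Counts of all genes called moved. Without the filter on low counts they were 21 in LTHSC-like, 26 in pre-MegE-like, 5 in erythroid-like, 50 in megakaryocyte-like, 34 in basophil/mast-like and 30 in GMP-like cells. DESeq2 called 15 in KL, 1 in pre-MegE-like, 1 in erythroid-like, 1 in megakaryocyte-like and 2 in GMP-like cells. With 2000 variable genes 2 were called in LTHSC-like and 2 in basophil/mast-like cells. With the replicate block of pool sets, 4 genes were called in KL, 7 in pre-MegE-like, 2 in megakaryocyte-like, 6 in basophil/mast-like and 4 in GMP-like cells. Leaving out 1 pool gave 0 to 6 in pre-MegE-like (6 without CVT pool 6, 5 without CVT pool 5), 0 to 5 in megakaryocyte-like (5 without CVT pool 6), 1 to 4 in basophil/mast-like (4 without SPF pool 7) and 0 to 4 in GMP-like cells (4 without CVT pool 6). Fits within pools 1 to 4 called 146 in KL, 21 in LTHSC-like, 28 in pre-MegE-like, 25 in erythroid-like, 18 in megakaryocyte-like, 1 in basophil/mast-like and 23 in GMP-like cells, and those within pools 5 to 8 called 0, 1, 1, 2, 0, 0 and 57 in the same order. No paired analysis was possible because the housing groups share no replicate numbers, and the block above stands for mouse numbers 1 to 10 and 11 to 20. The alternatives without doublets were not run, since the caller marked too few cells. The causes were not tested.

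The difference in crossing position (-0.00687) was 0.127 with a coarser clustering, 0.0913 with 2000 variable genes and 0.0566 with a principal component as the order, and -0.127 to 0.113 when 1 pool was left out. The log2 fold change of Gata2 in pre-MegE-like cells (0.00062) was -0.0025 with RLE, -0.0047 with DESeq2, -0.0010 with cells filtered, -0.0096 with a coarser clustering, -0.0055 with 2000 variable genes and -0.037 to 0.037 when 1 pool was left out. Leaving out 1 pool turned the sign of the KL log2 fold changes of Gata1 (-0.035 to 0.19), Zfpm1 (-0.019 to 0.13), Tal1 (-0.0057 to 0.095) and Gfi1b (-0.037 to 0.22), each without SPF pool 7. In erythroid-like cells the sign turned for Gata1 (-0.052 to 0.012) without SPF pool 1 or 2 and for Klf1 (-0.045 to 0.028) without CVT pool 5 or SPF pool 8. The sign of the difference in Gata1 share turned in megakaryocyte-like cells (-0.344 to 1.26 percentage points) without CVT pool 4 or 6 or SPF pool 7, and in pre-MegE-like cells (-0.904 to 0.112) without SPF pool 7. Without a change of sign, Klf1 in KL cells ran from 0.016 to 0.24, Gata1 in pre-MegE-like cells from -0.048 to -0.0091 and the erythroid-like Gata1 share from 1.88 to 5.49. None of these differences passed a test. Of the levels by class recomputed under other clusterings or after thinning, 21 moved by more than 1 SD. With a coarser clustering 8 moved and 46 did not, and after thinning again 8 moved and 46 did not. With 2000 variable genes 3 moved and 51 did not. With the 6 genes allowed among the variable genes 2 moved and 52 did not.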
